A study of Mus musculus with 58 samples.

Results

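The 8 genes described here mark the cholinergic interneurons of the striatum: Chat, Slc5a7, Slc18a3, Lhx8, Gbx2, Zic4, Ecel1 and Slc17a8. They were chosen by name, as a list, from the 54593 gene identifiers of the series, and all 8 were present in each of the 6 count tables. The study set mice of the 3g line beside mice of the 16p11.2 line, asking how far a few genes of a chromosomal deletion account for what the whole deletion does in the striatum. The strain label of all samples of both lines is B6129S, although the methods name C57BL/6J males as sires of the zygotes edited for the 3g line. The 3g del/+ mice carry one mutated copy each of Taok2, Sez6l2 and Mvp, in which CRISPR/Cas9 editing placed premature stop codons, and the 16p11.2 del/+ mice lack one copy of the interval that holds these genes and their neighbours. Wild type (wt) animals of each line served as its controls. Bulk RNA-seq of striatum covered 32 libraries, with 4 wt and 4 del/+ animals of either sex in both lines. Male striatum was also used for ribosome footprinting (sequencing of the short RNA pieces that ribosomes protect) with RNA-seq of the same lysate, from 3 wt and 3 del/+ animals of the 3g line and 4 wt and 3 del/+ animals of the 16p11.2 line. The mutations are in the germ line and are therefore shared by all cells of the tissue.

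Cholinergic interneurons are rare, large, tonically firing cells that supply most of the acetylcholine in the striatum and pause when an animal meets a cue for reward. Acetylcholine is made from choline and acetyl-CoA by choline acetyltransferase (Chat), packed into vesicles by the vesicular acetylcholine transporter (Slc18a3), broken down in the cleft by acetylcholinesterase (Ache), and the freed choline is taken back up by the high-affinity choline transporter (Slc5a7). Lhx8 and Gbx2 encode homeodomain transcription factors and Zic4 a zinc finger factor, all used while these neurons are generated and specified in the ventral forebrain. Slc17a8 encodes the vesicular glutamate transporter VGLUT3, through which cholinergic interneurons also release glutamate, and Ecel1 a membrane protein related to the endothelin-converting enzymes.

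In the RefSeq annotation of GRCm38.p6, Chat spans chr14:32408203-32465909 and Slc18a3 lies inside that span at chr14:32462437-32464850, both on the minus strand, in the arrangement known as the cholinergic gene locus. Whether any counted exon is shared between the pair was not tested, since only gene spans were at hand, so their levels may not be fully separate measurements. Slc5a7 lies at chr17:54273590-54299038, Lhx8 at chr3:154306288-154330560, Gbx2 at chr1:89927962-89931176, Ecel1 at chr1:87142874-87157085 and Slc17a8 at chr10:89574020-89621249, all on the minus strand. Zic4 lies on the plus strand at chr9:91365631-91389351. The 3 genes of acetylcholine synthesis, packing and choline recovery were picked because their RNA levels varied together between libraries (given further on). Shown are the 250 bases before the start of each in the promoter annotation. They are written 5′ to 3′ on the minus strand with CG dinucleotides in capitals, at chr14:32465910-32466159 for Chat, chr14:32464851-32465100 for Slc18a3 and chr17:54299035-54299284 for Slc5a7.
Chat: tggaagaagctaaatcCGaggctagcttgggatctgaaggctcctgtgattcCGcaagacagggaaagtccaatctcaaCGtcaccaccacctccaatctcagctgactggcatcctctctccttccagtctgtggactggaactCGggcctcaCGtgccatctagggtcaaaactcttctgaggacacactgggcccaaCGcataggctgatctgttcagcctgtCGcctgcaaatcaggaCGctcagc
Slc18a3: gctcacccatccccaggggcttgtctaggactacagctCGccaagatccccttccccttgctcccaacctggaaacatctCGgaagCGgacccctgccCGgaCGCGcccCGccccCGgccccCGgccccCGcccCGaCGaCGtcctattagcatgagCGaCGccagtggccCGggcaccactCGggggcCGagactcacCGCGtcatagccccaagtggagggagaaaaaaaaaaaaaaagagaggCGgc
Slc5a7: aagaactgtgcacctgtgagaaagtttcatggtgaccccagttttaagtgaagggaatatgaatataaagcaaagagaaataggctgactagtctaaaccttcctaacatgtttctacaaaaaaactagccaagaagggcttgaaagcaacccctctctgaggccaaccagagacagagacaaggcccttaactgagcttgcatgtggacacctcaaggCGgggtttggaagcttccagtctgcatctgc
These windows hold 8, 21 and 1 CG dinucleotides, against a median of 6 over 32851 promoter windows of the same length. At least as many CG dinucleotides were found in 43.0%, 16.3% and 92.1% of those windows, so the Slc18a3 start is rich in CG and the Slc5a7 start is poor in it. The letters TGACGT, searched on both strands, occurred in the Chat window and in 6.47% of all windows, and TATAAA occurred in the Slc5a7 window and in 12.4% of all windows. The 3 starts therefore do not share one base composition. The Slc5a7 window reaches a few bases into the RefSeq gene span given above.

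RNA-seq libraries held 11711099 to 65529807 counted reads, lysate RNA libraries 15102576 to 19122488 and footprint libraries 342052 to 678130. Sez6l2 separated the genotypes of the 3g line, at 182 to 225 CPM (read counts scaled to a common library total) in del/+ and 273 to 339 CPM in wt libraries, whereas Taok2 overlapped there and was lower in all 16p11.2 del/+ libraries (82.8 to 95.4 CPM) than in wt libraries of that line (153 to 195 CPM). Ddx3y, a gene of the Y chromosome, stood at 38.6 CPM and Xist at 0.463 CPM in the library labelled 16p11.2 del/+ female 1, against 0 CPM of Ddx3y and at least 324 CPM of Xist in the other 15 libraries labelled female. Over 911 genes that separated wt females of the lines, scaled so that wt females of the 3g line averaged 0 and those of the 16p11.2 line averaged 1, wt male 17 of the 3g line lay at 0.880 with the other 15 libraries of its line between -0.098 and 0.191, and del/+ male 4 of the 16p11.2 line lay at 0.301 with the others between 0.844 and 1.28. The tissue carried striatal markers throughout, with the dopamine receptor Drd1 at 198 to 309 CPM in the RNA-seq libraries. The cortical glutamate transporter Slc17a7 ranged from 26.3 to 1081 CPM in the same libraries. The sum of 5 cortical neuron markers was the highest of its line in wt male 17 (879 CPM). In del/+ male 4 it was 764 CPM, inside the range of its line. The part of cortical content in the positions was not tested. The genotype and covariation results, and the lysate comparison of the 3g line, are also given without the libraries that stood apart.

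Every member was detected by RNA-seq in both lines, and CPM below are scaled by the trimmed mean of M values (TMM) over all 32 libraries. Levels of one gene are compared between samples and not with those of another gene, since gene lengths were not used. Chat ranged from 15.8 to 32.5 CPM with a median of 23.3 in the 16 libraries of the 3g line, and from 15.5 to 26.5 CPM with a median of 20.99 in the 16 libraries of the 16p11.2 line. The 2 ranges overlapped over most of their length. Slc5a7 had medians of 33.02 CPM (22.2 to 45.6) in the 3g line and 26.4 CPM (20.9 to 33.1) in the 16p11.2 line. Slc18a3 had medians of 8.41 CPM (5.84 to 10.4) and 7.33 CPM (5.52 to 10.6), and Ecel1 of 44.8 CPM (31.2 to 55.7) and 38.4 CPM (28.3 to 47.0). Slc17a8 was closest between lines, at 16.7 CPM (11.24 to 20.3) and 16.99 CPM (13.3 to 21.8).

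As a ratio of RNA-seq medians, 3g over 16p11.2, the transcription factors lay farthest apart, at 3.27 for Gbx2, 1.73 for Lhx8 and 1.68 for Zic4 against 0.984 to 1.25 for the other members. Lhx8 had a median of 8.54 CPM (4.63 to 11.7) in the 3g line and 4.95 CPM (2.96 to 6.73) in the 16p11.2 line. Gbx2 was the least counted member, with 0.986 CPM (0.337 to 1.30) and 0.302 CPM (0.0324 to 0.621), the latter from 1 to 20 reads a library. Zic4 had medians of 2.59 CPM (1.72 to 4.10) and 1.54 CPM (0.875 to 2.62). The lowest Lhx8 value of the 3g line, 4.63 CPM, came from wt male 17, the library that stood nearer the other line, and its Gbx2 value of 0.350 CPM also lay inside the 16p11.2 range. Without it, Lhx8 in the 3g line ran from 5.63 to 11.7 CPM. The cortical marker sum of wt male 17, 879 CPM, lay inside that of 16p11.2 wt males (718 to 1274 CPM). In lysate RNA the same ratios of medians were 0.936 for Gbx2, 1.11 for Lhx8 and 1.13 for Zic4. Cortical marker sums differed between the lines in RNA-seq, with group means of 211 to 416 CPM in the 3g line and 895 to 957 CPM in the 16p11.2 line. They overlapped in lysate RNA (189 to 455 and 137 to 523 CPM). Sums of thalamus and habenula markers had RNA-seq group means of 48.4 to 53.8 CPM in the 3g line and 34.5 to 44.3 CPM in the 16p11.2 line. In lysate RNA their group means were 53.1 and 55.9 CPM in the 3g line and 60.2 and 61.5 CPM in the 16p11.2 line. The part of these markers in the line differences was not tested. The lines were counted in separate tables and no term for handling could be fitted, so line and processing cannot be told apart for any of these differences. In bulk tissue, fewer cholinergic cells and less RNA per cell cannot be told apart either.

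**Figure D1:**
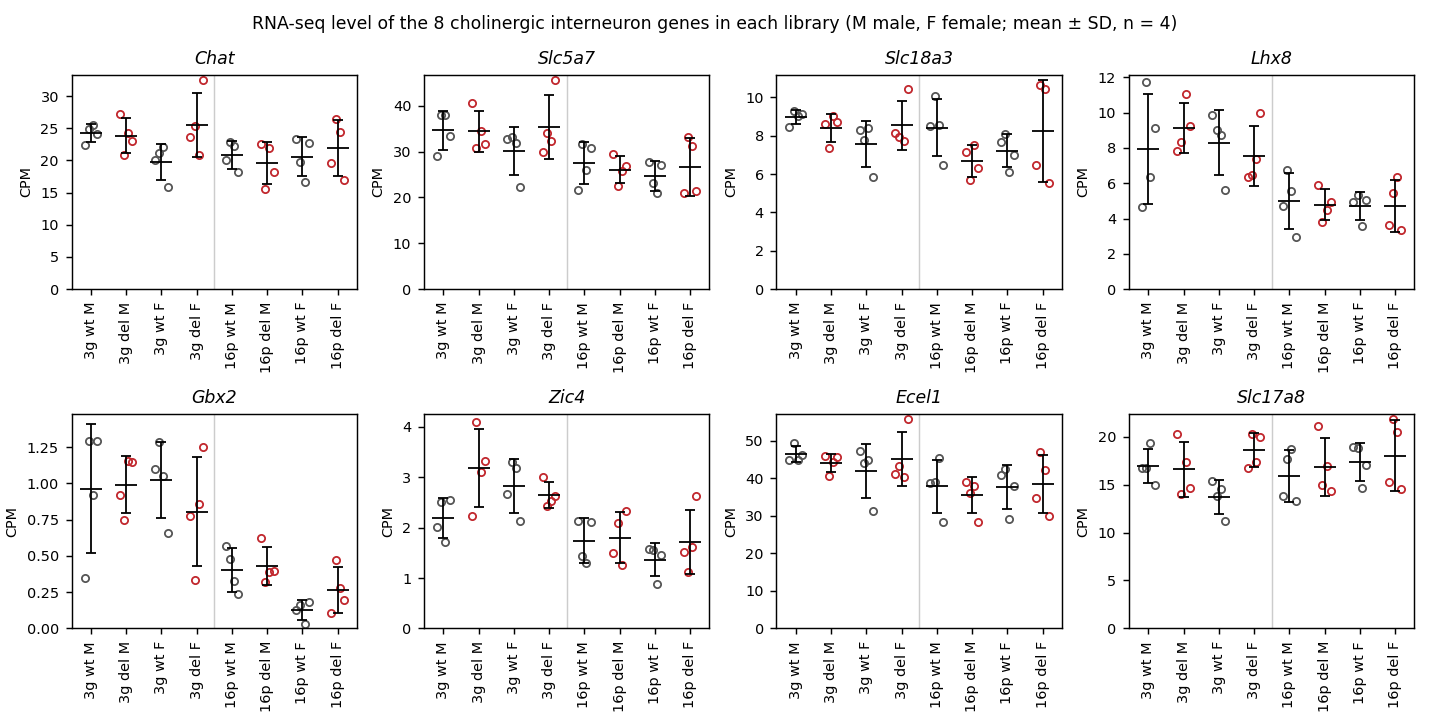
RNA-seq level in TMM-scaled CPM (vertical axes, from 0) of each member in the 8 groups of 4 libraries (grey circles wt, red circles del/+, black marks mean ± SD). Lhx8, Gbx2 and Zic4 sit higher in the 3g groups on the left of each panel than in the 16p11.2 groups on the right, and in no panel other than Slc17a8 in 3g females do the circles of del/+ and wt libraries of one sex and line separate.

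Within groups, 6 of the other 7 members rose and fell with Chat from library to library. The deviation of each library from its group mean was taken on the log2(CPM + 0.5) scale over 32 libraries, and p-values came from 100000 permutations within groups, adjusted over the 7 members. The vesicular transporter Slc18a3 followed Chat most closely, with Pearson r = 0.853 (adjusted p = 3.5e-05) and Spearman rho = 0.831 (adjusted p = 4.67e-05). Slc5a7 (r = 0.814, rho = 0.823), Slc17a8 (r = 0.806, rho = 0.813) and Ecel1 (r = 0.796, rho = 0.792) followed, with adjusted permutation p-values of 4.67e-05, 3.5e-05 and 0.000157 for r and of 3.5e-05, 3.5e-05 and 0.000122 for rho. The developmental factors were looser: Lhx8 had r = 0.657 and rho = 0.671 (adjusted permutation p = 0.000182 and 0.000336), and Gbx2 r = 0.538 and rho = 0.553 (0.00282 and 0.00351). Zic4 was the exception, with r = -0.312 and rho = -0.323 (adjusted permutation p = 0.145 and 0.121). Raw permutation p-values were between 1e-05, the smallest that 100000 permutations can give, and 0.00301 for the 6 members.

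The 2 libraries farthest from the median of Chat were del/+ female 4 of the 16p11.2 line and del/+ female 37 of the 3g line. Without them r was 0.806 for Slc18a3, 0.757 for Slc5a7, 0.815 for Slc17a8, 0.725 for Ecel1, 0.586 for Lhx8, 0.464 for Gbx2 and -0.194 for Zic4. Within the 3g line alone r was 0.882, 0.906, 0.727, 0.864, 0.499, 0.482 and -0.0203 in the same order of genes, and within the 16p11.2 line 0.858, 0.746, 0.857, 0.760, 0.805, 0.693 and -0.486. Gbx2 no longer passed in the 3g line alone (adjusted permutation p = 0.0964) or without 4 libraries that stood apart, namely wt male 17 and wt female 39 of the 3g line, del/+ male 4 of the 16p11.2 line and the library labelled 16p11.2 del/+ female 1 (r = 0.492, adjusted permutation p = 0.0535). Wt female 39 was low for every member among the wt females of its line, with Chat at 15.8 CPM against 20.03, 21.2 and 22.0 CPM in the others. Its cortical marker sum was higher, at 9.11 against 7.25, 6.77 and 7.23 on the log2 scale, and the part of this was not tested.

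Among 15095 genes with a mean of at least 1 CPM, the 5 with the highest Pearson r with Chat over the same 32 libraries were Tacr1, Slc10a4, Slc18a3, Dlx6 and Meis1. Tacr1, the receptor for substance P that striatal cholinergic interneurons carry, had r = 0.907 and rho = 0.909. Slc10a4, a protein of cholinergic and monoaminergic vesicles, had r = 0.859, and the homeodomain factors Dlx6 and Meis1 had r = 0.849 and r = 0.830. Slc5a7, Slc17a8, Ecel1 and Lhx8 stood at ranks 10, 13, 19 and 138 of the 15095, and Zic4 at rank 13081. The median r over all 15095 genes was -0.0005, the 95th percentile was 0.439 and the 99th percentile was 0.645. Gbx2 had a mean under 1 CPM and was not ranked. The permutation test was not run on all genes, so the share of them that would pass is not given. The ranked r are descriptions over genes that share libraries and depth.

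Markers of other cells moved with Chat too. The summed level of 10 spiny neuron markers, the projection neurons that make up most of the striatum, had r = 0.795 and rho = 0.786 with Chat (adjusted permutation p = 0.0002 and 0.0003, over 10 lists). The sum of 5 cortical neuron markers had r = -0.529 and rho = -0.652 (adjusted permutation p = 0.00025 and 0.0003), with summed levels of 33.8 to 879 CPM in the 3g line and 718 to 1274 CPM in the 16p11.2 line. The 9 nicotinic receptor subunits, summed, had r = -0.397 and rho = -0.418 (adjusted permutation p = 0.0543 and 0.0461). GABA interneuron markers had r = -0.0141 (adjusted permutation p = 0.938). The sum of 7 hypothalamus markers had r = 0.528 (adjusted permutation p = 0.0144), with r = 0.104 in the 3g line and 0.898 in the 16p11.2 line, from sums of 3.71 to 6.99 CPM, with the defining gene Hcrt at 0 in 11 of 32 libraries. The part of these other markers in the covariation was not tested. The 11 other genes of cholinergic neurons, summed, had r = 0.662 (adjusted permutation p = 0.00177). Other cholinergic lists did not follow Chat: genes of acetylcholine breakdown and choline handling had r = 0.156 and muscarinic receptors r = -0.0429 (adjusted permutation p = 0.615 and 0.93). Thalamus and habenula markers had r = -0.385 and choroid plexus markers r = 0.0981 (adjusted permutation p = 0.113 and 0.915).

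**Figure D2:**
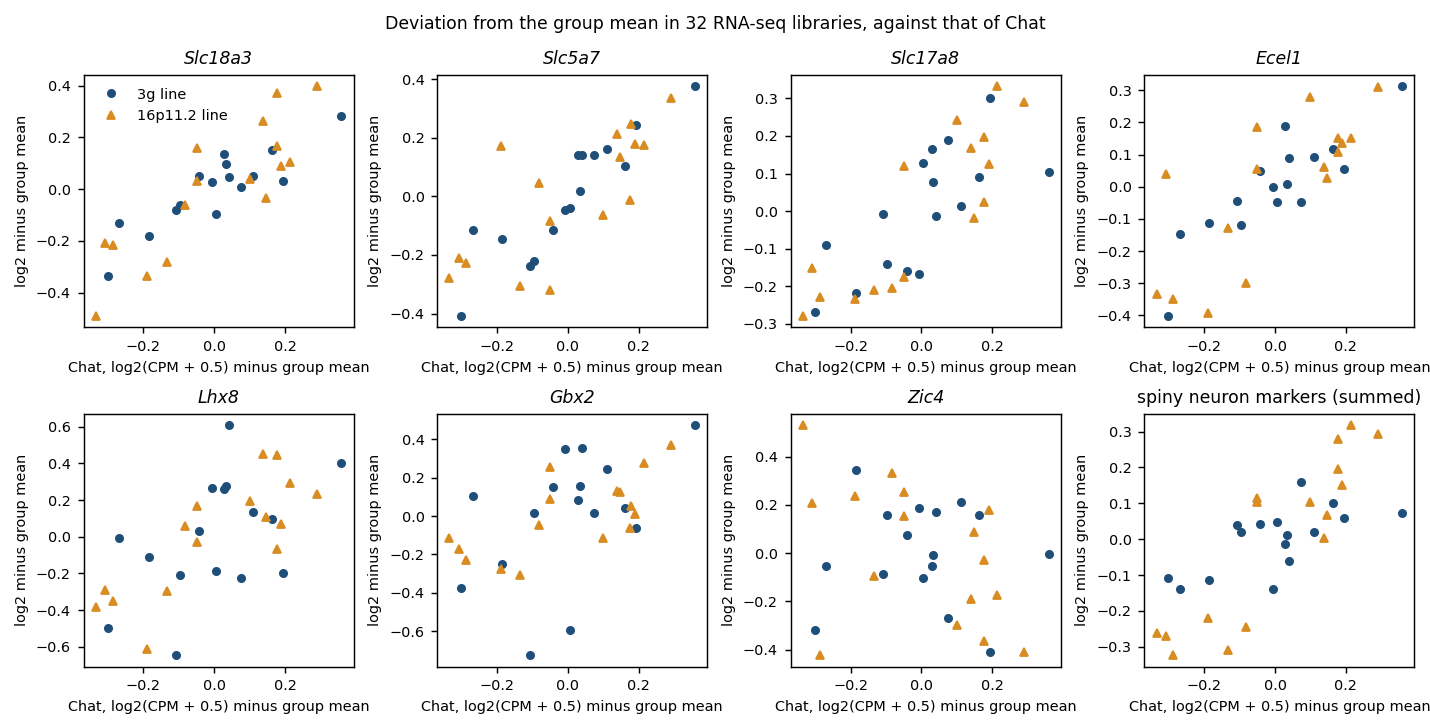
Deviation of each RNA-seq library from its group mean, with Chat on the horizontal axes and each other member, or the sum of 10 spiny neuron markers, on the vertical axes (all on the log2(CPM + 0.5) scale for genes; circles 3g line, triangles 16p11.2 line, 32 libraries). Points climb from lower left to upper right for Slc18a3, Slc5a7, Slc17a8, Ecel1 and the spiny neuron markers (r between 0.795 and 0.853), and Zic4 shows no such slope (r = -0.312).

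In males of the 3g line no member was called by edgeR's quasi-likelihood test at a Benjamini-Hochberg adjusted p under 0.05, against 0% of 19081 genes tested, and no member had groups that did not overlap, against 1.94% of those genes. All 8 were tested, at an unadjusted p under 0.05 there was 1 (Zic4), against 1.44% of all genes, and DESeq2 called 0. Zic4 stood at 2.22, 4.10, 3.11 and 3.31 CPM in del/+ males and at 2.02, 2.51, 1.72 and 2.54 CPM in wt males. The lowest del/+ library lay inside the wt range. The log2 fold change was 0.57 (SE 0.20, edgeR adjusted p = 0.974), and an exact two-sided permutation test of CPM gave p = 0.0857 with n = 4 a group, where 0.0286 is the smallest it can give. Chat stood at 27.2, 20.8, 24.3 and 23.1 CPM in del/+ and at 22.5, 24.9, 25.5 and 24.1 CPM in wt males, with a log2 fold change of -0.0027 (SE 0.10). The other 6 members had log2 fold changes of -0.07 to 0.22. Without wt male 17, no member was called and the 8 fold changes ran from -0.22 to 0.53.

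In females of the 3g line, Slc17a8 and Chat were the members with an unadjusted p under 0.05, and neither was called. Slc17a8 stood at 16.7, 20.3, 17.4 and 19.9 CPM in the 4 del/+ females and at 15.3, 13.8, 14.6 and 11.24 CPM in the 4 wt females. Every del/+ library was above every wt library, and groups did not overlap, in either direction, for 5.08% of the 19024 genes tested. Means were 18.6 ± 1.79 CPM in del/+ and 13.7 ± 1.78 CPM in wt (SD, n = 4), and the exact two-sided permutation p was 0.0286, the smallest this design allows. The edgeR log2 fold change was 0.45 (SE 0.099, unadjusted p = 0.000739) and did not pass adjustment (adjusted p = 0.204), where 0.00526% of genes were called. DESeq2 called it (adjusted p = 0.00993), as did edgeR without the filter on low counts (adjusted p = 0.0064) and edgeR without wt female 39 (log2 fold change 0.36, adjusted p = 0.0473). These settings also called more genes over the whole table, at 117, 158 and 175 in that order, against 1 in the main fit. Over leaving out each library in turn the edgeR adjusted p ranged from 0.0473 to 0.579, and it was 0.9999 in a fit of all 16 libraries of the line.

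Chat in the same females stood at 23.6, 25.3, 20.9 and 32.5 CPM in del/+ and at 20.03, 21.2, 22.0 and 15.8 CPM in wt, so that one del/+ library fell inside the wt range. Its log2 fold change was 0.39 (SE 0.13, unadjusted p = 0.0118, edgeR adjusted p = 0.34). It was 0.25 without del/+ female 37 and 0.29 without wt female 39, and at most 0.46 over leaving out each library. Slc5a7 (0.26), Slc18a3 (0.20) and Ecel1 (0.13) were on the same side and Gbx2 (-0.29), Lhx8 (-0.11) and Zic4 (-0.07) on the other, with edgeR adjusted p-values of 0.54 to 0.893. The median over the 8 members was 0.16, beside -0.0012 over all genes, and 11.03% of all genes had an unadjusted p under 0.05 in this comparison. Spiny neuron markers overlapped between genotypes (sums of 5036 to 5839 CPM in del/+ and 5117 to 5913 CPM in wt), and cortical markers did too (155 to 617 and 109 to 554 CPM). On the log2 scale the cortical sums were 8.86, 9.27, 8.74 and 7.28 in del/+ and 7.25, 6.77, 7.23 and 9.11 in wt libraries. The 7.28 came from del/+ female 37 and the 9.11 from wt female 39. All 5 cortical markers were higher in del/+ (log2 fold changes of 0.65 to 0.87, none called), and their part was not tested. The 7 choroid plexus markers did not overlap, with sums of 17.2 to 28.4 CPM in del/+ and 32.7 to 36.98 CPM in wt, and their part in the result was not tested.

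The genotype effect on these genes was also compared between the sexes of the 3g line in 1 fit of 16 libraries, where 0% of 19830 genes were called. The difference, males minus females, was -0.47 (SE 0.18, unadjusted p = 0.0191) for Slc17a8, -0.39 (SE 0.18, unadjusted p = 0.0437) for Chat and 0.65 (SE 0.25, unadjusted p = 0.0214) for Zic4. An unadjusted p under 0.05 was found for 2.69% of all genes. All 3 had an edgeR adjusted p of 0.901, and DESeq2 called 0 members. In the same fit the 5 cortical neuron markers had differences of -1.97 to -1.07 (median -1.40), none called, and their part was not tested. Without wt male 17 and wt female 39 the differences were -0.40 for Slc17a8, -0.34 for Chat and 0.74 for Zic4 (unadjusted p = 0.0275, 0.0439 and 0.00658, edgeR adjusted p = 0.9999 for each). The interaction p-values do not show that the sexes differ for these genes, nor that they respond alike.

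In the 16p11.2 line no member was called in either sex, against 0.106% of 17957 genes called in males and 0.144% of 18067 genes in females. At an unadjusted p under 0.05 there were 0 of 8 members in males and 0 of 7 in females, against 5.82% and 4.47% of all genes, where Gbx2 did not pass the filter on low counts, and DESeq2 called 0 in both. Slc18a3 in males came nearest, at 7.16, 5.66, 7.50 and 6.34 CPM in del/+ and 8.53, 10.1, 8.57 and 6.50 CPM in wt. The lowest wt library lay inside the del/+ range, the log2 fold change was -0.33 (SE 0.16, edgeR adjusted p = 0.742) and the exact two-sided permutation p was 0.0857 (n = 4). In females the same gene stood at 6.46, 10.6, 10.4 and 5.52 CPM in del/+ and 7.67, 8.09, 6.12 and 7.01 CPM in wt, and its del/+ libraries lay on both sides of the wt range (log2 fold change 0.19, SE 0.20). Chat had log2 fold changes of -0.09 (SE 0.14) in males and 0.09 (SE 0.14) in females. Log2 fold changes of all members tested ran from -0.33 to 0.09 in males and from -0.01 to 0.34 in females. Leaving out del/+ male 4 gave -0.31 to 0.15 in males and leaving out the library labelled del/+ female 1 gave 0.08 to 0.39 in females, with 0 members called in both. The genotype by sex interaction called 0 of 8 members (0% of 18870 genes), and the difference was largest for Gbx2 (-0.95, SE 0.66) and Slc18a3 (-0.53, SE 0.28, edgeR adjusted p = 0.835). Without del/+ male 4 and the library labelled del/+ female 1 these were -1.18 (SE 0.67) and -0.61 (SE 0.29), with an edgeR adjusted p of 0.995 for both.

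**Figure D3:**
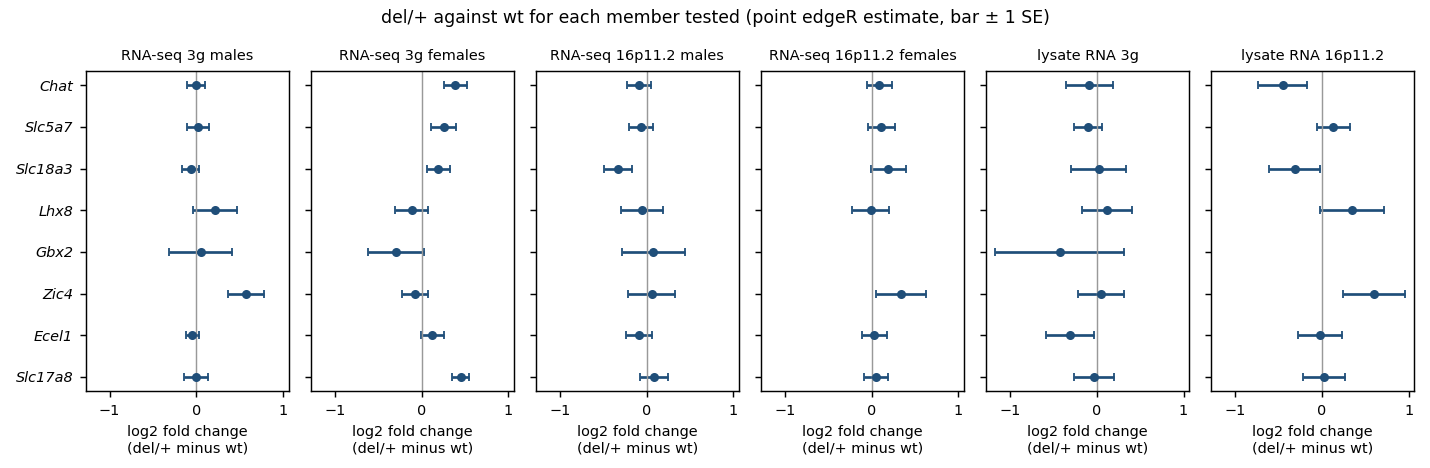
Log2 fold change of del/+ against wt (horizontal axes) for each member that was tested, in the 4 RNA-seq comparisons and the 2 lysate RNA comparisons (points edgeR estimates, bars ± 1 SE). The bars of Slc17a8 and Chat in 3g females (0.45 and 0.39) and of Zic4 in 3g males (0.57) are among those that stay clear of 0, and no member was called.

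Lysate RNA gave a second set of male animals, and none of the members was called there. Genotypes overlapped for every member tested, where 9.63% of all genes in the 3g line and 5.68% in the 16p11.2 line did not overlap. In the 3g line 0.0209% of 14378 genes were called and 0 of the 8 members, with log2 fold changes of -0.42 to 0.12 and none at an unadjusted p under 0.05. In the 16p11.2 line 0.133% of 14330 genes were called and 0 of 7 members, with log2 fold changes of -0.45 to 0.60, again with none at an unadjusted p under 0.05. DESeq2 called 0 in both. Chat stood at 2.51, 3.47 and 2.96 CPM in 3g del/+ and 2.09, 3.73 and 3.68 CPM in 3g wt lysates. In the 16p11.2 line it stood at 1.78, 2.75 and 2.59 CPM in del/+ and 2.26, 3.82, 4.18 and 2.89 CPM in wt lysates, with a log2 fold change of -0.45 (SE 0.28, edgeR adjusted p = 0.99). The highest del/+ values lay inside the wt range in both lines. Zic4 had 0.60 (SE 0.36, edgeR adjusted p = 0.99) in the 16p11.2 line, with 1 del/+ animal at 6.22 CPM beside 2.57 and 2.52 CPM in the other del/+ animals, and 0.041 without that animal.

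The lysate libraries counted several members far below the RNA-seq libraries. The tables were scaled separately, counting differed between them, and the values in this paragraph are pooled reads of wt males in CPM of the library total, so they are set side by side as a description. Chat had 25.97 CPM in RNA-seq and 3.27 CPM in lysate RNA of the 3g line, and 20.5 and 3.11 CPM in the 16p11.2 line. The log2 ratio of lysate RNA to RNA-seq for Chat lay at the 0.517th percentile of 12962 genes in the 3g line and at the 2.18th percentile of 12839 genes in the 16p11.2 line. Ecel1 had 49.7 and 6.93 CPM in the 3g line and 37.3 and 4.73 CPM in the 16p11.2 line (percentiles 0.825 and 1.04). Slc5a7, in contrast, had 37.3 and 20.4 CPM in the 3g line, near the middle of all genes (percentile 47.0), and Zic4 was higher in lysate RNA (2.39 and 3.12 CPM, percentile 87.4). Slc18a3 and Slc17a8 lay at percentiles 6.93 and 6.32 in the 3g line and 15.7 and 10.5 in the 16p11.2 line. Without wt male 17 the 3g percentiles were 0.478 for Chat, 0.802 for Ecel1, 43.4 for Slc5a7, 86.2 for Zic4, 6.36 for Slc18a3 and 5.99 for Slc17a8. The labels give polyA RNA as the molecule of all samples, while the RNA-seq protocol names a ribosomal depletion kit, so how RNA selection differed between the assays cannot be told.

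Footprints were sparse: Ecel1, the most counted member, had 8 to 37 footprint reads a library in the 3g line and 7 to 15 in the 16p11.2 line, and Gbx2 had 1 and 4 reads in all. Only Ecel1 and Slc5a7 passed the filter in the 3g line and only Ecel1 in the 16p11.2 line. No member was called between genotypes, against 0.0132% of 7553 genes in the 3g line and 0.117% of 5964 genes in the 16p11.2 line. Ecel1 stood at 14.8, 46.9 and 26.5 CPM in 3g del/+ and at 35.5, 62.6 and 24.3 CPM in 3g wt footprints (log2 fold change -0.49, SE 0.43, edgeR adjusted p = 0.821). In the 16p11.2 line it stood at 28.4, 25.99 and 30.6 CPM in del/+ and 26.3, 36.9, 15.2 and 29.4 CPM in wt footprints (0.11, SE 0.42, edgeR adjusted p = 0.991). The genotypes overlapped in both lines, and in the 16p11.2 line 6.79% of all genes did not. Slc5a7 in the 3g line had a log2 fold change of 0.36 (SE 0.50, edgeR adjusted p = 0.901).

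Slc18a3 footprints of the 3g line did not pass the filter, and their few reads separated the genotypes. Reads numbered 8, 11 and 6 in the 3 wt animals, or 17.8, 23.7 and 13.2 CPM. The 3 del/+ animals had 1, 5 and 4 reads, or 1.85, 6.34 and 5.89 CPM. All wt libraries lay above all del/+ libraries, as groups did not overlap for 14.2% of the 7553 genes tested, and the exact two-sided permutation p was 0.1, the smallest that 3 against 3 allows. Without the filter, edgeR gave a log2 fold change of -1.85 (SE 0.66, adjusted p = 0.292). Lysate RNA of the same animals overlapped, at 1.74, 2.78 and 1.89 CPM in wt and 1.41, 2.47 and 2.64 CPM in del/+. In the 16p11.2 line Slc18a3 footprints overlapped as well, at 11.4, 2.89 and 21.4 CPM in del/+ and 8.75, 17.2, 4.35 and 9.79 CPM in wt. This pattern was noticed after the values were seen, in a gene left out of the fit.

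Footprints per lysate RNA, often called translational efficiency, gave no called genotype difference among the members that could be tested. The fits given here and for wt animals below held no term for animal, although both assays came from the same animals. The edgeR interaction of genotype and assay gave 0.48 (SE 0.54, adjusted p = 0.871) for Slc5a7 and -0.16 (SE 0.57, adjusted p = 0.97) for Ecel1 in the 3g line, and 0.13 (SE 0.51, adjusted p = 0.999) for Ecel1 in the 16p11.2 line. Over all genes, 0% of 7493 and 0.017% of 5898 were called, and DESeq2 called 0 members in both lines. With the filter applied to all libraries together, 5 more members entered the 3g fit and 7 more the 16p11.2 fit, and none was called by edgeR (adjusted p of at least 0.525 and 0.793). Those with an unadjusted p under 0.05 were Slc18a3 in the 3g line at -1.94 (SE 0.69, edgeR adjusted p = 0.525) and Chat in the 16p11.2 line at 1.99 (SE 0.95, edgeR adjusted p = 0.793). In the other line Slc18a3 had 0.51 (SE 0.74) and Chat -0.75 (SE 0.86).

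Within wt animals, footprints exceeded lysate RNA for Ecel1 in every animal. The log2 ratio of footprint to lysate CPM was 2.85, 2.66 and 2.18 in the 3 wt animals of the 3g line and 2.97, 2.46, 1.80 and 2.38 in the 4 of the 16p11.2 line. No animal came near 0. The fits gave 2.27 (SE 0.44, edgeR adjusted p = 0.000214) and 2.09 (SE 0.35, edgeR adjusted p = 2.42e-05). The filter asked for footprint reads, so a member of low lysate level could be tested only where its footprints were higher. These p-values carry that selection. With the filter over all libraries together, Ecel1 had 2.17 (SE 0.42, edgeR adjusted p = 0.000184) and 1.97 (SE 0.33, edgeR adjusted p = 2.0e-05). With the filter on each assay, calls were made for 59.8% of 7493 and 63.9% of 5898 genes. The 1 of 2 members called in the 3g line and 1 of 1 in the 16p11.2 line is near that background. Slc5a7 had -0.63 (SE 0.41, edgeR adjusted p = 0.195) in the 3g line. The excess in Ecel1 stands beside its low lysate level: pooled footprints of wt males set against RNA-seq gave log2 ratios of -0.01 and -0.69 in the 2 lines, at percentiles 62.7 and 50.4 of all genes (-0.063 and percentile 61.3 in the 3g line without wt male 17), whereas footprints against lysate RNA lay at percentiles 97.7 and 97.6.

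Pooled over the wt animals of a group, the ratio of footprint to lysate CPM, each scaled to the library totals, was 7.11 (exact 95% interval 5.27 to 9.44) for Ecel1 in the 3g line and 4.89 (3.51 to 6.68) in the 16p11.2 line. The intervals are Clopper-Pearson intervals on pooled reads and leave out the spread between animals. Reads without molecular identifiers are not independent molecules, so the intervals may be too narrow even for counting error. Slc18a3 had 9.91 (6.16 to 15.4) and 3.67 (2.09 to 6.08) in the same groups, against 2.44 (1.14 to 4.66) in 3g del/+ and 5.73 (2.85 to 10.5) in 16p11.2 del/+ animals, so that del/+ was below wt in the first line and above it in the second. Slc5a7 had 0.949 (0.592 to 1.44) and 1.23 (0.881 to 1.67), at percentiles 29.6 and 56.2 of all genes, whose median ratio was 1.46 in the 3g line and 1.10 in the 16p11.2 line. Chat had 3.49 (1.82 to 6.14) from 13 footprint reads in the 3g line and 0.808 (0.259 to 1.92) from 5 reads in the 16p11.2 line. Lhx8 had 2.66 (1.43 to 4.55) and 2.18 (1.25 to 3.55), Zic4 2.26 (0.958 to 4.55) and 2.54 (1.29 to 4.57), and Slc17a8 1.52 (0.606 to 3.20) and 1.09 (0.464 to 2.17). Gbx2 had 0 footprint reads in 3g wt animals, and its ratio there has an upper limit of 5.11. With the filter over all libraries together, 5 more members entered the wt contrast in the 3g line and 7 more in the 16p11.2 line, of which Slc18a3 was called, at 2.65 (SE 0.47, edgeR adjusted p = 6.97e-05) in the 3g line and 1.57 (SE 0.51, edgeR adjusted p = 0.0131) in the 16p11.2 line.

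**Figure D4:**
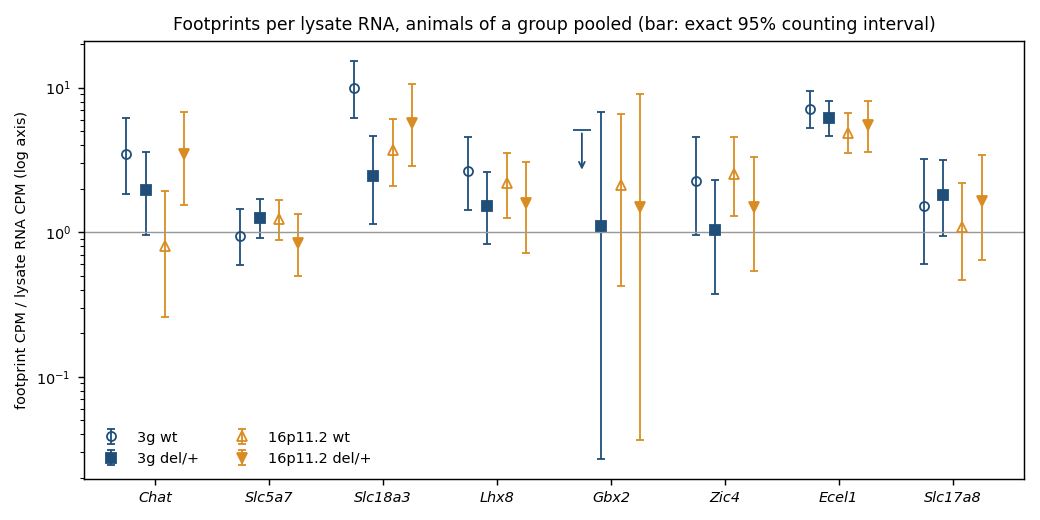
Ratio of footprint to lysate RNA CPM (log axis) for each member, with the animals of a group pooled (open symbols wt, filled symbols del/+, blue 3g line, orange 16p11.2 line, bars exact 95% counting intervals, arrow an upper limit where no footprint was read). Ecel1 lies above 3 in all 4 groups, and Slc18a3 runs from 9.91 in 3g wt to 2.44 in 3g del/+ animals and from 3.67 in 16p11.2 wt to 5.73 in 16p11.2 del/+ animals.

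The other genes of cholinergic signalling gave no called genotype difference. Over 4 such lists (8 genes of acetylcholine breakdown and choline handling, 5 muscarinic receptors, 9 nicotinic receptor subunits and 11 other genes of cholinergic neurons) none passed in any RNA-seq, interaction, lysate, footprint or translational efficiency comparison, by edgeR or by DESeq2. In 3g females 3 of 5 muscarinic receptors had an unadjusted p under 0.05, where 11.03% of all genes did, and the 5 ran from -0.31 to 0.48. The median log2 fold changes of the 4 lists in that comparison were 0.0017, 0.086, 0.082 and -0.078, beside -0.0012 over all genes. In 3g males they were 0.012, -0.085, -0.018 and 0.073.

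In wt animals, 9 of the 14 genes of these lists that were tested in the 3g line (64.3%) and 8 of 10 in the 16p11.2 line were called, all of them higher in footprints than in lysate RNA, beside 59.8% and 63.9% of all genes called in either direction. The share in the 3g line is near that of all genes, and the values below are a description. The filter asked for footprint reads, so genes of low lysate level entered only where their footprints were higher. That selection favours the higher direction. Ache was higher in footprints by 1.58 (SE 0.21, edgeR adjusted p = 2.85e-06) in the 3g line and by 1.30 (SE 0.24, edgeR adjusted p = 8.82e-05) in the 16p11.2 line on the log2 scale. The choline kinase Chkb had 1.07 and 1.37, and the choline transporter-like gene Slc44a2 0.82 in the 3g line. The muscarinic receptors Chrm4 (1.64 and 0.95) and Chrm1 (0.62 and 0.40) were called in both lines. Among nicotinic subunits, Chrnb2 was called in both lines (0.61 and 0.52), Chrna4 (1.09) and Chrna7 (0.71) in the 3g line, and Chrnb3 (4.52) in the 16p11.2 line. Zic5, a relative of Zic4, had 3.05 and 3.78. In the comparison lists, Sst of GABA interneurons had 1.81 and 1.30 and the spiny neuron peptide gene Penk 1.76 and 1.73, while the dopamine receptor Drd1 was lower in footprints (-0.59 and -0.62).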

How the data were processed

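Striatal RNA of 58 libraries was analysed from raw counts per gene, deposited by the authors in 6 tables (RNA-seq, lysate RNA and footprints for each line), with no normalization. The labels give polyA RNA as the molecule, whereas their protocol names ribosomal depletion and the study's methods a stranded total RNA kit for RNA-seq, and the submitters' processing notes name HTSeq and mm10; the notes for footprint and lysate libraries name Bowtie2 and mm39. Whether counting used strand is not given in the sources used here. The strain label is B6129S, and animals were adult littermates.

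Genes passing filterByExpr (minimum count 10) were tested with edgeR 4.0.16 (R 4.3.3, TMM, quasi-likelihood, Benjamini-Hochberg adjustment over all genes tested, adjusted p under 0.05) within each line and sex, with a contrast for genotype by sex and for genotype by assay. The assay fits asked for the filter in footprints and in lysate RNA each. DESeq2 1.42.0 was an alternative. Exact permutation tests were two-sided and used TMM-scaled CPM, with scaling over all libraries of an assay. The edgeR fits were tested on simulated data. The named members were the 8 genes, and other lists name called genes, at most 3 per list and comparison, beside the 5 genes most like Chat. The members and lists were chosen with earlier results of these data known. Gene symbols and positions came from the reference tables by symbol, and all 8 members matched both the gene and the promoter table.

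Footprint and lysate libraries of one number come from the same animal, which pairs them. The main assay fits did not use this pairing, and a fit with animal number as a block was an alternative. RNA-seq numbers 1 to 4 of the 16p11.2 line were not treated as pairs in the main fits. Deviations of same-numbered libraries correlated at -0.244 to 0.132, which cannot exclude a pairing by litter or handling. No 2 libraries of a group agreed within sampling noise (lowest chi-square per degree of freedom 2.48). The labels name no separate litters, so that p-values measure the spread between these samples. Alternatives left out each library, the filter or the scaling, as the closing section gives.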

Additional observations from a re-analysis of the deposited data

Results flagged for a closer look

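Over 80 groups of 4 libraries and members, 2 had a library far from the other 3 by Dixon's criterion, which chance alone would meet in about 1 of 20 groups. Slc18a3 in del/+ females of the 3g line stood at 10.4 CPM in female 37 and between 7.71 and 8.12 CPM in the other 3. Slc5a7 in wt females of the 3g line stood at 22.2 CPM in female 39 and between 31.9 and 33.3 CPM in the other 3.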

How the results depend on the processing

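No member was called between genotypes under the alternatives run, which were another scaling, DESeq2, no filter on low counts, a fit of all 16 libraries, a replicate block where numbers were shared, and leaving out each library, with the exception of Slc17a8 in 3g females. The count of members called there was 0 and became 1 with DESeq2, 1 without the filter, and 0 to 1 over leaving out each library. Footprint depth limits the members: only Ecel1 and, in the 3g line, Slc5a7 could be tested, and the others entered with other filters, none called between genotypes. Members called in footprints per lysate RNA of wt animals were 1 in each line, 2 in the 3g line and 2 in the 16p11.2 line with the filter over all libraries together, 1 to 2 in the 3g line and 0 to 1 in the 16p11.2 line over leaving out each animal. The value of 0 arose where Ecel1 no longer passed the filter, as it did without any 1 of 3 of the 4 wt animals.

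Of the fold changes of members under an alternative, 533 kept direction and call, 3 became called and 71 changed sign. In 3g males, Slc5a7 without the filter was -0.014, and leaving out each library gave -0.088 to 0.054 for Chat, -0.093 to 0.063 for Slc5a7, -0.22 to 0.22 for Gbx2 and -0.13 to 0.062 for Slc17a8. In 3g females Zic4 ran from -0.20 to 0.018. In 16p11.2 males the ranges were -0.16 to 0.018 for Chat, -0.17 to 0.0067 for Slc5a7, -0.23 to 0.13 for Lhx8, -0.14 to 0.28 for Gbx2, -0.097 to 0.19 for Zic4, -0.20 to 0.014 for Ecel1 and -0.035 to 0.18 for Slc17a8. In 16p11.2 females Lhx8 was 0.0021 without the filter, and ranges were -0.013 to 0.19 for Chat, -0.0046 to 0.21 for Slc5a7, -0.19 to 0.12 for Lhx8, -0.073 to 0.13 for Ecel1 and -0.046 to 0.14 for Slc17a8. In lysate RNA of the 3g line they were -0.32 to 0.052 for Chat, -0.28 to 0.12 for Slc5a7, -0.14 to 0.26 for Slc18a3, -0.28 to 0.39 for Lhx8, -1.26 to 0.18 for Gbx2, -0.13 to 0.28 for Zic4, -0.53 to 0.077 for Ecel1 and -0.22 to 0.091 for Slc17a8. In lysate RNA of the 16p11.2 line they were -0.052 to 0.31 for Slc5a7, -0.11 to 0.72 for Lhx8, -0.23 to 0.15 for Ecel1 and -0.10 to 0.24 for Slc17a8. For the translational efficiency of Ecel1 in the 16p11.2 line the range was -0.0072 to 0.27.

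Genes called by edgeR and by DESeq2 over the whole table are given in that order. For RNA-seq they were 0 and 1 in 3g males, 1 and 117 in 3g females, 19 and 32 in 16p11.2 males and 26 and 49 in 16p11.2 females. For lysate RNA and footprints of the 3g line they were 3 and 13, and 1 and 11, and of the 16p11.2 line 19 and 31, and 7 and 15. Translational efficiency had 0 and 16 in the 3g line and 1 and 5 in the 16p11.2 line, and the 16p11.2 interaction 0 and 3. Without the filter they were 158 in 3g females, 45 in 16p11.2 females, 9 in 3g lysate RNA, 127 in 3g footprints and 43 in 16p11.2 footprints, and a fit of all 16 libraries called 1 in 3g males. The filter over all libraries together called 6719 in footprints per lysate RNA of the 16p11.2 line, against 3768. Leaving out each library gave 0 to 1 in 3g males, 1 to 175 in 3g females, the highest without wt female 39, 3 to 12 and 10 to 19 in lysate RNA of the 3g and 16p11.2 lines, 0 to 24 and 2 to 13 in footprints, and 0 to 5 and 1 to 2 in translational efficiency. The replicate block of shared RNA-seq numbers called 14 genes in 16p11.2 males, 22 in females and 2 in the interaction, and the paired fit on animal number 2 and 5 in translational efficiency of the 3g and 16p11.2 lines. These fits called 0 members more. No paired analysis was possible for RNA-seq of the 3g line because its groups share no replicate numbers. The cause of these differences was not tested.

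The correlation with Chat passed for 6 members, for 5 without the 4 libraries that stood apart (chosen after seeing the data), and for 6 to 7 over leaving out each library, where Zic4 passed without wt female 39 of the 3g line (r = -0.442) or wt female 3 of the 16p11.2 line (r = -0.480).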
